A study of Rattus norvegicus with 18 samples.

Results

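Angiogenic and vasoactive factors are secreted proteins and peptides through which a tissue shapes its blood vessels and their tone. Of the 14324 genes with a probe set of their own on the array, 10 are described here: Vegfa, Vegfb, Vegfc, Pgf, Adm, Angpt1, Angpt2, Angptl4, Edn1 and Apln. They were picked out by gene symbol, and each of the 10 was read by 1 probe set, so no member had to be left out and no filter on low values was applied.

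At low oxygen the hypoxia-inducible factors (HIF) escape degradation and bind short DNA motifs near genes such as Vegfa, the classical growth factor through which oxygen-starved tissue calls in new vessels. Gliomas, tumours of glial lineage, are known for vessels that follow secreted VEGF and for regions that outgrow their blood supply. VEGF ligands act on receptor tyrosine kinases of endothelial cells, angiopoietins act on the endothelial receptor Tek, and adrenomedullin, apelin and endothelin-1 are peptides that widen or narrow vessels through G protein-coupled receptors.

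All samples come from 9L, a single rat gliosarcoma line, grown either as tumours or in culture, and total RNA was amplified from 2 ng per sample. The tumours were carried by Fischer 344 rats. Per the labels, male rats 6 weeks old received 9L cells under the skin to give the first tumour passage, and pieces of passage 5 or 6 tied onto the epigastric artery and vein started the tumours that were sampled. The same age is given for each tumour sample, and whether it also holds for the rats that carried the sampled tumours is not stated. EF5, a nitroimidazole drug, forms adducts in oxygen-poor cells that an antibody can stain, and from each of 3 tumours an EF5-positive area (the hypoxic region) and an EF5-negative area (the normoxic region) were cut out by laser capture. Cultured 9L cells in medium with 12% newborn calf serum were held at 0.2% oxygen (hypoxia) or about 20% oxygen (normoxia) for 6 h (cultures 6, 13 and 26) or 16 h (cultures 22, 28 and 29). This gave 6 groups of 3 arrays each, 18 in all, a number that limits the precision. All values below are log2 probe set signals or differences between them, and they compare samples for a given gene, not genes with each other.

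The known hypoxia marker Car9, a carbonic anhydrase, was 1.94 ± 0.19 log2 units higher in hypoxic than in normoxic tumour regions, 1.60 ± 0.19 higher in hypoxic cultures at 6 h and 1.54 ± 0.19 higher at 16 h (SE, n = 3 tumours and 3 cultures per group), in every pair, and was called in culture at both times (limma adjusted p = 0.00166 and 0.00118) but not in the tumours (limma adjusted p = 0.141). The array of the normoxic region of tumour 3 stood apart: it correlated at 0.941 with the mean of the normoxic cultures across probe sets, against 0.865 to 0.892 for the other 5 tumour arrays. Markers of other cell types also differed between regions. The mean level of 12 macrophage markers was 6.88 to 7.44 in hypoxic and 7.56 to 8.09 in normoxic regions, without overlap, against 5.41 to 5.56 in cultures, and 9 of the 12 were lower in hypoxic regions, none called. The mean of the 9 measured of 13 endothelial markers was 5.94 to 6.05 in hypoxic and 5.89 to 6.03 in normoxic regions, against 5.01 to 5.30 in cultures. The mean of the 9 measured pericyte and smooth muscle markers was 6.64 to 6.74 in hypoxic and 6.5 to 6.59 in normoxic regions, and that of the 7 measured glial and neural stem cell markers 7.23 to 7.31 in hypoxic and 7.07 to 7.20 in normoxic regions, both without overlap. Adipocyte markers averaged 6.22 to 6.48 in hypoxic and 6.08 to 6.28 in normoxic regions, with overlap. All 8 of 8 were higher on the hypoxic side by mean difference, but their average in tumour 2 was 6.22 there and 6.24 in its normoxic region. Skeletal muscle markers averaged 6.24 to 6.46 in hypoxic and 6.21 to 6.29 in normoxic regions. No marker of these lists was called between regions. The median difference was 0.21 for the pericyte, 0.07 for the glial, 0.15 for the adipocyte and 0.17 for the skeletal muscle list, beside 0.10 over all probe sets. Of all probe sets, 64.8% were higher in hypoxic regions. As a check of the cell type, the glial and stem cell markers averaged 6.48 to 6.73 in cultures. Vimentin (Vim) lay between 11.89 and 12.38 over all 18 arrays, while the stem cell filament Nes was at 6.97 to 7.81 in tumours and 5.91 to 6.41 in cultures, and the astrocyte filament Gfap at 5.23 to 5.77 in tumours and 4.83 to 5.19 in cultures. In normoxic tumour regions 6 of the 7 were called higher than in normoxic cultures, with a median difference of 0.59. In that contrast 43.6% of all probe sets were called higher, with a median of 0.245 over all of them. The deposited values carry no detection call, so whether a marker was absent could not be told. Because a region or culture is measured in bulk, fewer cells of a type and less RNA per cell cannot be told apart.

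Vegfa, Pgf and Adm were higher under hypoxia in all 9 hypoxic and normoxic pairs, by a mean of 1.04 to 2.62 log2 units in the tumour and culture comparisons. Apln was higher in the 3 pairs of cultures at 6 h by 0.82 units on average, and by less in the other settings. The other 6 factors, Vegfb, Vegfc, Angpt1, Angpt2, Angptl4 and Edn1, differed by -0.15 to 0.27 units in those comparisons. A difference was called where its limma adjusted p over all 27363 probe sets was under 0.05. The calls were Pgf and Adm in culture at both times, and no member in the tumours.

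**Figure D1:**
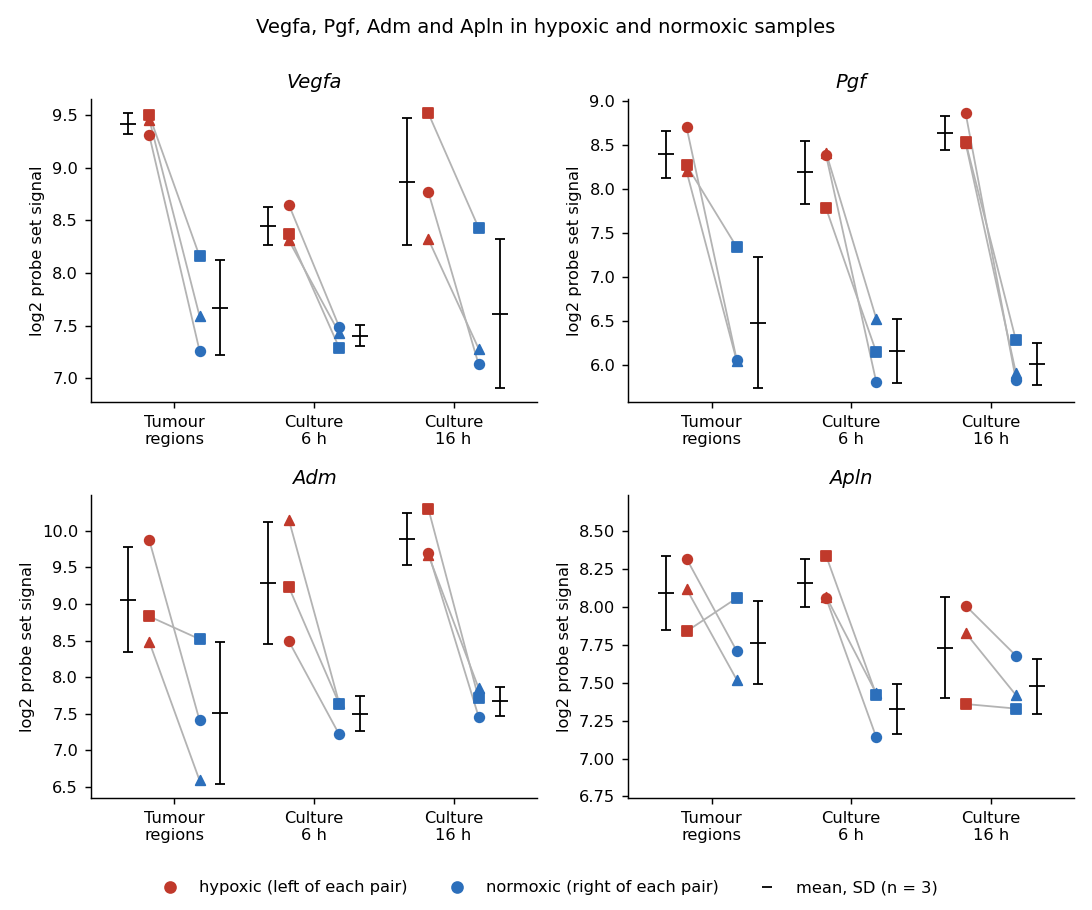
Log2 probe set signal of Vegfa, Pgf, Adm and Apln in each array, with the hypoxic array (red) left of the normoxic one (blue), lines joining arrays of the same tumour or culture number, 1 symbol shape per number within a setting, and black bars for the mean and SD (n = 3). Vegfa and Pgf do not overlap between hypoxic and normoxic tumour regions, and the normoxic region of tumour 2 (square) is the highest normoxic tumour array in all 4 panels.

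Vegfa encodes vascular endothelial growth factor A, which drives endothelial growth and permeability through the receptors Flt1 and Kdr. Its level was 9.31, 9.50 and 9.46 in hypoxic areas of tumours 1, 2 and 3, against 7.26, 8.16 and 7.59 in their normoxic regions. All hypoxic regions lay above all normoxic ones, and they lay closer together (SD 0.10) than the normoxic regions (SD 0.46). The difference of 1.75 ± 0.22 (SE, n = 3 tumours), or 3.37-fold, did not pass the test (limma adjusted p = 0.145). With the error of each probe set taken from all 18 arrays it passed (limma adjusted p = 0.000847). That error draws on the cultures too, which vary less. The lowest correlation of an array within its group was 0.937 to 0.95 in tumours and 0.988 to 0.994 in cultures. Without tumour 1 the Vegfa difference was 1.60 and passed (limma adjusted p = 0.00503). Without tumour 3, whose normoxic array stood apart, it was 1.70, and no member was called without tumour 2 or 3. Over all probe sets, 563 were called without tumour 1, against 0 with all 3 tumours. The lower macrophage marker level of the hypoxic regions moved with this and the other tumour differences. So did their higher pericyte, glial and, in tumours 1 and 3, adipocyte marker levels. The glial and adipocyte medians lay near that of all probe sets. The part of these markers in the tumour differences was not tested.

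In cultures at 6 h, Vegfa was at 8.65, 8.37 and 8.31 under hypoxia in cultures 6, 13 and 26, against 7.49, 7.29 and 7.43 under normoxia. The groups did not overlap. The difference was 1.04 ± 0.31 (SE, n = 3 per group), or 2.05-fold (limma adjusted p = 0.607), and it was called with culture number as a block (limma adjusted p = 0.0125). At 16 h it was at 8.77, 9.52 and 8.32 under hypoxia in cultures 22, 28 and 29, against 7.13, 8.43 and 7.28 under normoxia. Culture 28 was high on both sides, so that its normoxic array exceeded the hypoxic array of culture 29 and the groups overlapped. The difference was 1.25 ± 0.31, or 2.38-fold (limma adjusted p = 0.106). It was called with culture number as a block (limma adjusted p = 0.00211) and without the normoxic array of culture 28, at 1.66 (limma adjusted p = 0.0111). The Vegfa probe set is annotated to 5 RefSeq transcripts of the gene, so splice forms were not separated.

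Pgf encodes placental growth factor, a VEGF relative that binds Flt1 but not Kdr. In tumours 1, 2 and 3 it was at 8.70, 8.27 and 8.20 in hypoxic regions, against 6.06, 7.34 and 6.05 in normoxic regions. The groups did not overlap, and the normoxic region of tumour 2 lay more than 1 log2 unit above the other normoxic regions. The difference was 1.91 ± 0.34 (SE, n = 3 tumours), or 3.75-fold, and was not called (limma adjusted p = 0.219). It was called with the spread of all 18 arrays (limma adjusted p = 0.00712) and without tumour 1, at 1.54 (limma adjusted p = 0.0107). It was not called without tumour 2 or without tumour 3, where it was 1.79. At 6 h, Pgf was at 8.38, 7.78 and 8.41 in hypoxic cultures 6, 13 and 26, against 5.81, 6.15 and 6.53 in the normoxic ones. At 16 h it was at 8.86, 8.53 and 8.52 in hypoxic cultures 22, 28 and 29, against 5.84, 6.29 and 5.92 in the normoxic ones. Neither time showed overlap. Pgf rose 4.08-fold at 6 h, by 2.03 ± 0.20 log2 units (limma adjusted p = 0.000324), and 6.15-fold at 16 h, by 2.62 ± 0.20 (SE, n = 3 per group, limma adjusted p = 2.40e-05). Both calls held under every alternative tried and without any single array.

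Adm encodes adrenomedullin, a vasodilator peptide that also supports endothelial growth through Calcrl with Ramp2 or Ramp3. In tumours 1, 2 and 3 it was at 9.87, 8.83 and 8.48 in hypoxic regions, against 7.41, 8.52 and 6.59 in normoxic regions. The normoxic region of tumour 2 lay above the lowest hypoxic region, so the groups overlapped, and the pair of tumour 2 differed by 0.31 against 2.46 and 1.89 in tumours 1 and 3. The difference of 1.55 ± 0.41 (SE, n = 3 tumours), or 2.94-fold, was not called (limma adjusted p = 0.350). It was called with the spread of all 18 arrays (limma adjusted p = 0.0364), and it was 1.39 without tumour 3. At 6 h, Adm was at 8.49, 9.23 and 10.15 in hypoxic cultures 6, 13 and 26, against 7.22, 7.64 and 7.65 in the normoxic ones. At 16 h it was at 9.70, 10.30 and 9.67 in hypoxic cultures 22, 28 and 29, against 7.46, 7.71 and 7.85 in the normoxic ones. The hypoxic cultures lay above the normoxic ones at both times, with a wider spread among hypoxic cultures at 6 h (SD 0.83). Adm rose 3.45-fold at 6 h, by 1.79 ± 0.31 (limma adjusted p = 0.0327), and 4.65-fold at 16 h, by 2.22 ± 0.31 (SE, n = 3 per group, limma adjusted p = 0.00334). The 6 h call was lost when any array but the hypoxic one of culture 6 was left out: it was 1.65 without normoxic culture 6, 1.86 without normoxic culture 13, 1.82 without hypoxic culture 13, 1.86 without normoxic culture 26 and 1.36 without hypoxic culture 26 (limma adjusted p = 0.0769 to 0.216). It was also lost with trended and robust variance (limma adjusted p = 0.0988) and with the spread of all 18 arrays (limma adjusted p = 0.764, and 0.0928 at 16 h), and it held with culture number as a block (limma adjusted p = 0.00869).

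Apln encodes apelin, a peptide that acts on Aplnr in sprouting endothelium and also relaxes vessels. In tumours 1, 2 and 3 it was at 8.32, 7.84 and 8.12 in hypoxic regions, against 7.71, 8.06 and 7.52 in normoxic regions. In tumour 2 the hypoxic region was the lower one. The tumour difference was 0.33 ± 0.24 (SE, n = 3 tumours, limma adjusted p = 0.681). At 6 h, Apln was at 8.06, 8.34 and 8.07 in hypoxic cultures 6, 13 and 26, against 7.14, 7.42 and 7.43 in the normoxic ones, without overlap. That difference of 0.82 ± 0.16, or 1.77-fold, did not pass (limma adjusted p = 0.0740), whereas a fit blocked on culture number called it (limma adjusted p = 0.0175). At 16 h it was at 8.01, 7.36 and 7.83 in hypoxic cultures 22, 28 and 29, against 7.68, 7.33 and 7.42 in the normoxic ones. These groups overlapped, and the difference was 0.25 ± 0.16 (limma adjusted p = 0.795).

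Set against all probe sets, 2 of 10 members were called higher in culture at 6 h, where 0.183% of all probe sets were, and 2 of 10 at 16 h, where 0.603% were. With the culture number as a block, 4 members were called higher at 6 h (Vegfa, Pgf, Adm and Apln) against 0.208% of all probe sets, and 3 at 16 h (Vegfa, Pgf and Adm) against 0.727%. In the tumours 0 of 10 members and 0% of all probe sets were called higher, with a smallest limma adjusted p of 0.106 in all. At an unadjusted limma p under 0.05, the tumours gave 3 members higher (Vegfa, Pgf and Adm), against 3.42% of all probe sets. With the spread of all 18 arrays, which includes the less variable cultures, the same 3 members were called higher in the tumours, against 1.64% of all probe sets. Hypoxic arrays all lay above normoxic ones for 2 members in the tumours (Vegfa and Pgf), as for 11.8% of all probe sets. The same held for 5 members at 6 h (Vegfa, Pgf, Adm, Apln and, by 0.0355 units, Angpt2), against 5.6%, and for 3 at 16 h (Pgf, Adm and, by 0.0152 units, Vegfc), against 6.6%. The median difference over the 10 members was 0.25 in the tumours, 0.10 at 6 h and 0.12 at 16 h, beside 0.10, 0.01 and -0.03 over all probe sets. The plot of the 10 differences with their 95% intervals shows most of the list near 0.

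**Figure D2:**
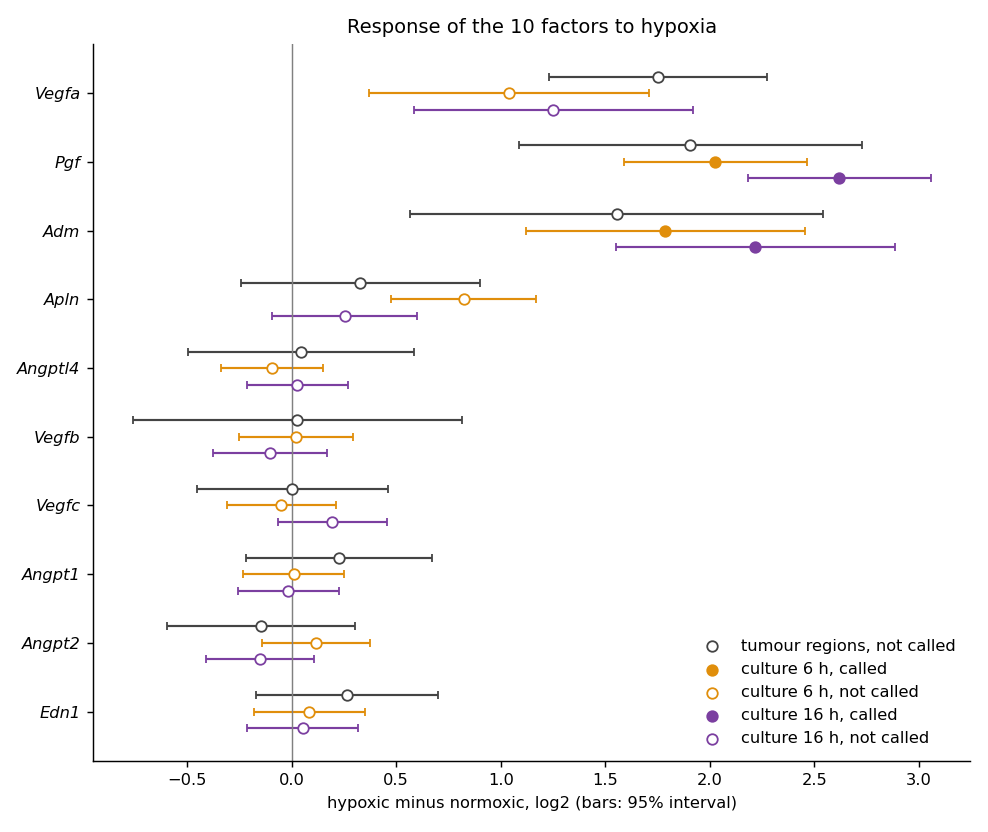
Hypoxic minus normoxic log2 difference of each of the 10 factors (horizontal axis) in tumour regions, in culture at 6 h and in culture at 16 h, with 95% intervals from the limma fits and filled points for called differences. Filled points appear for Pgf and Adm in culture, and the intervals of the lower 6 factors all include 0.

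The promoters of the factors that moved together are shown because HIF binds the core ACGTG or GCGTG, here sought on both strands in the 250 bases before the transcription start. RefSeq promoters (rat build GRCr8) were found for 8 of the 10 members. The first 3 below belong to the factors that were higher in every pair, and the last 2 to the members that hold ACGTG. Capitals mark a core, which on the opposite strand reads CACGT or CACGC, and each line runs 5′ to 3′ on the strand of the gene. The windows are chr9:22452604-22452853 (+, the first of 2 annotated starts of Vegfa), chr6:110557748-110557997 (-, Pgf), chr1:174179950-174180199 (+, Adm), chr7:15258682-15258931 (-, Angptl4) and chr17:22666688-22666937 (-, Edn1).
Vegfa: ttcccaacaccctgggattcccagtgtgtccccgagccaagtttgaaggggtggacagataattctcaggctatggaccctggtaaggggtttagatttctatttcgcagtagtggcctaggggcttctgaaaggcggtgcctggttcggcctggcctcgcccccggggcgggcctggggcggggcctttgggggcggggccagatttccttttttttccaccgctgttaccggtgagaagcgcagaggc
Pgf: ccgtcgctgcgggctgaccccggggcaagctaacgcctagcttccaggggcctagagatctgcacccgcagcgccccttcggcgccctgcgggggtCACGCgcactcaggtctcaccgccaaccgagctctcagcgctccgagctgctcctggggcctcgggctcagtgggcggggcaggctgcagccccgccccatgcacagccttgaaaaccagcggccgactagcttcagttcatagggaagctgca
Adm: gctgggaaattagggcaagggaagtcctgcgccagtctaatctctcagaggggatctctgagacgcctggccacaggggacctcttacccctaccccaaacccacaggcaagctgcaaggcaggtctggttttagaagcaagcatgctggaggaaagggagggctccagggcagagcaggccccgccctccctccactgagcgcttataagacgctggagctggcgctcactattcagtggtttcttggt
Angptl4: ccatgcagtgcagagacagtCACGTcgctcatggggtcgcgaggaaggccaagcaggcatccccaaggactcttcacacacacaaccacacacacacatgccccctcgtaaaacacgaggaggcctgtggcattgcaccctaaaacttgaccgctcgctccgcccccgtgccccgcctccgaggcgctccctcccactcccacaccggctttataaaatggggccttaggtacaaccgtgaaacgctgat
Edn1: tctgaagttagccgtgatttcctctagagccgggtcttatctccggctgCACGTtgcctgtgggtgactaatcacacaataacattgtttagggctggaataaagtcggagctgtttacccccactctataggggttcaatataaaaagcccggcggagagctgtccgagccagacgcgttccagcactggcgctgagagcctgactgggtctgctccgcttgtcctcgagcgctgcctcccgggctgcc
ACGTG was found in Angptl4, 230 to 226 bases before the start, and in Edn1, 201 to 197 bases before it, both on the opposite strand. GCGTG was found in Pgf, 154 to 150 bases before the start on the opposite strand, and in Vegfb, 68 to 64 bases before it. The windows of Vegfa, Adm, Apln and Vegfc hold neither string. Sequence outside the 250 bases was not searched, so cores elsewhere near these or the other genes are not covered. Of 33469 rat promoter windows of this length, 16.6% hold ACGTG, 25.9% GCGTG and 36.7% at least 1 of them, beside 4 of 8 members. Among the members with a core, Pgf was called under hypoxia in culture, and Vegfb, Angptl4 and Edn1 were not called in any hypoxia comparison.

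The remaining VEGF ligands were not called in any hypoxia comparison. Vegfb, a ligand of Flt1 known mainly from heart and muscle, was at 7.80, 8.96 and 8.74 in hypoxic regions of tumours 1, 2 and 3, against 8.71, 8.29 and 8.43 in normoxic regions. The sign of its pairs was mixed, lower in tumour 1 and higher in tumours 2 and 3, and the mean difference was 0.03 ± 0.32. Its 95% interval, -0.76 to 0.81, leaves room for a sizeable change either way. In culture Vegfb differed by 0.02 ± 0.13 at 6 h and -0.10 ± 0.13 at 16 h (SE). Vegfc, the ligand of Flt4 that drives lymphatic growth, was at 7.27, 7.31 and 6.91 in hypoxic regions, against 7.06, 7.39 and 7.03 in normoxic regions. The groups overlapped, with a difference of 0.00 ± 0.19, and the culture differences were -0.05 ± 0.12 at 6 h and 0.19 ± 0.12 at 16 h.

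The angiopoietins and Angptl4 did not pass the test in any hypoxia comparison either. Angpt1, the agonist of Tek that steadies vessels, was at 3.76, 4.05 and 3.62 in hypoxic regions, against 3.50, 3.71 and 3.55 in normoxic regions, a difference of 0.23 ± 0.18. Its cultures lay between 3.23 and 3.64, with differences of 0.01 ± 0.11 at 6 h and -0.02 ± 0.11 at 16 h. The Angpt1 probe set was among the dimmest 6% of the array by mean signal (percentile 5.69), where arrays resolve differences poorly. Angpt2, the Tek ligand that loosens vessels ahead of sprouting, was at 6.88, 6.68 and 7.07 in hypoxic regions, against 7.19, 6.80 and 7.07 in normoxic regions. The difference was -0.15 ± 0.18 in the tumours, 0.12 ± 0.12 at 6 h and -0.15 ± 0.12 at 16 h. At 16 h hypoxic culture 28 lay at 6.30 while the other 5 arrays lay between 6.74 and 6.79, and without it the difference was 0.0047. Angptl4, a secreted inhibitor of lipoprotein lipase that is a known hypoxia and PPAR target in other cells, was at 5.85, 6.25 and 6.28 in hypoxic regions, against 6.24, 6.12 and 5.88 in normoxic regions. Tumour 1 was lower and tumours 2 and 3 higher, at a mean of 0.05 ± 0.22, and the cultures differed by -0.09 ± 0.11 at 6 h and 0.03 ± 0.11 at 16 h.

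Edn1 encodes endothelin-1, a vasoconstrictor peptide. It was at 5.36, 4.94 and 4.99 in hypoxic regions of tumours 1, 2 and 3, against 5.06, 4.64 and 4.80 in normoxic regions. Each tumour was higher on the hypoxic side, by 0.31, 0.29 and 0.20, though the groups overlapped between tumours. The difference of 0.27 ± 0.18 (SE, n = 3 tumours) was not called (limma adjusted p = 0.670). In culture it was 0.08 ± 0.12 at 6 h and 0.05 ± 0.12 at 16 h. The Edn1 probe set was dim as well (percentile 18.9).

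**Figure D3:**
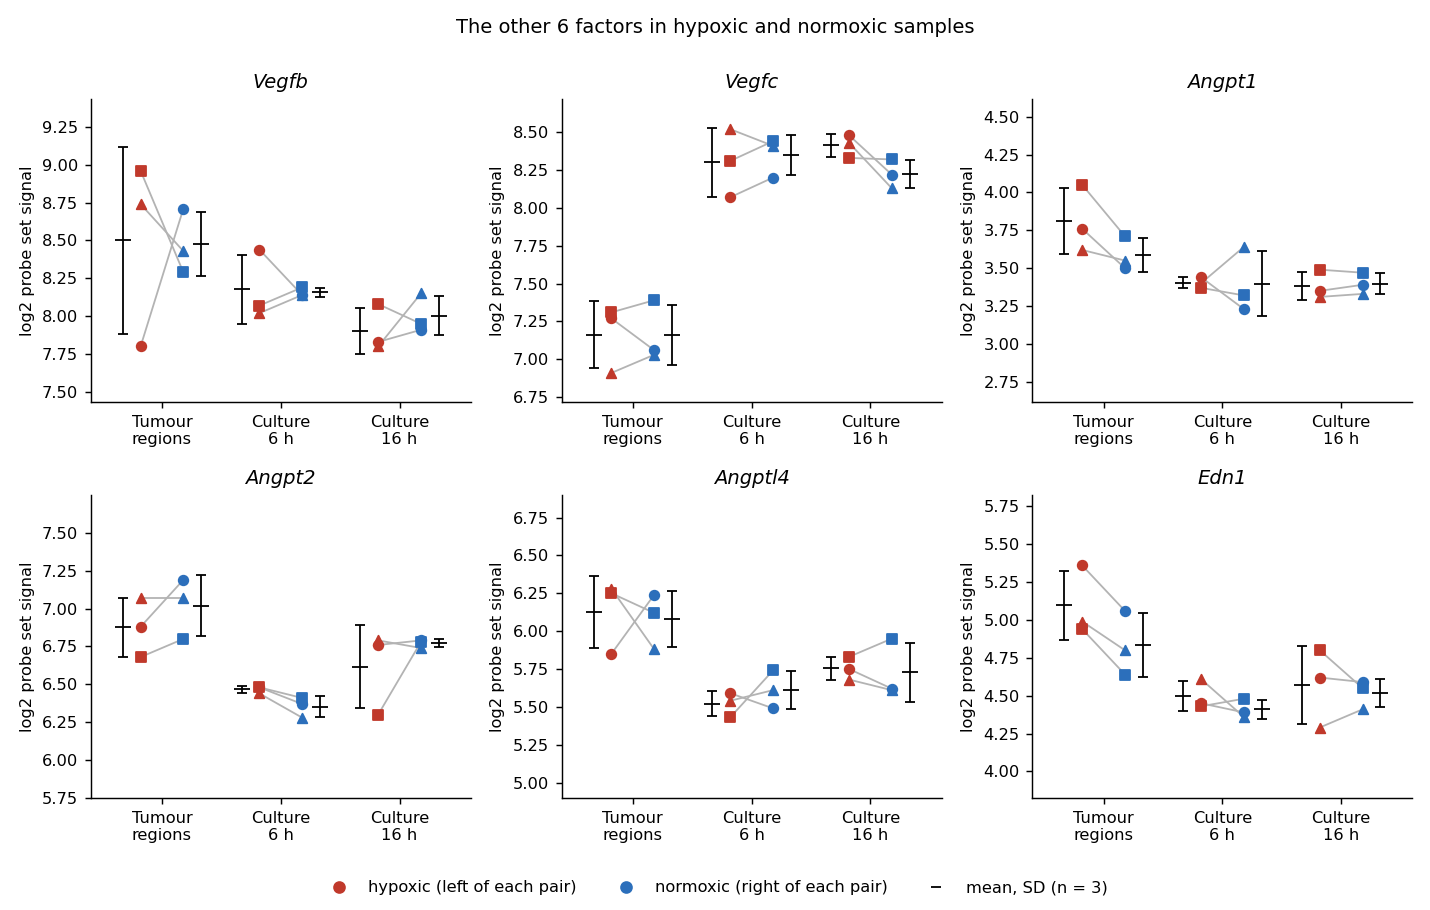
Log2 probe set signal of Vegfb, Vegfc, Angpt1, Angpt2, Angptl4 and Edn1 in each array, drawn as in the plot of Vegfa, Pgf, Adm and Apln, with hypoxic arrays (red) left of normoxic ones (blue) and the mean and SD (n = 3) in black. Hypoxic and normoxic arrays overlap in nearly every setting, and the wide gap in the Vegfc panel lies between tumours and cultures.

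The order of the 6 group means split by oxygen for Vegfa, Pgf and Adm. For each of them the 3 hypoxic groups came first and the 3 normoxic groups last. The gap between the lowest hypoxic and the highest normoxic group mean was 0.77 for Vegfa, 1.71 for Pgf and 1.39 for Adm, larger than the SD of either group beside it. No other pair of neighbours in these orders differed by more than the larger of their SDs. Vegfa was highest in hypoxic tumour regions, at 9.42 ± 0.10, and then in hypoxic cultures at 16 h, at 8.87 ± 0.61 (SD, n = 3). Pgf and Adm were highest in hypoxic cultures at 16 h, at 8.64 ± 0.19 and 9.89 ± 0.36 (SD, n = 3). Vegfc split by place of growth, with both tumour groups at 7.16 and the culture groups at 8.22 to 8.42, a gap of 1.06. Angptl4, Vegfb, Edn1 and Angpt1 split by place of growth too, with the tumour groups as the higher side. Their gaps were smaller, at 0.33, 0.30, 0.26 and 0.18, and that of Edn1 barely exceeded the larger SD (0.261 against 0.259). The tumour groups of Angpt2 also came first, but by 0.11, within the larger SD.

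Whether the response differed between tumour and culture, or between both culture times, was tested directly. The tumour response less the mean culture response was 0.61 ± 0.20 for Vegfa (limma adjusted p = 0.183). Without tumour 2 it was 0.81 and passed (limma adjusted p = 0.0468). The same difference was -0.42 ± 0.36 for Pgf and -0.45 ± 0.44 for Adm (limma adjusted p = 0.575 and 0.623), and its sign turned after quantile normalization, at 0.45 and 0.08. For those 3 genes the normoxic region of tumour 2 was the highest normoxic tumour array, and the sign for Pgf and Adm also turned without that tumour, at 0.07 and 0.18. No member was called higher in this contrast, where 0.179% of all probe sets were. Calls over all probe sets split into 49 higher and 270 lower, and into 195 higher and 443 lower after quantile normalization.

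Between 6 h and 16 h of hypoxia no response was called to differ, for members or for any probe set (0% called higher, limma, with 1194 probe sets and 1 member at an unadjusted p under 0.05). That member was Apln, whose response was smaller at 16 h by -0.57 ± 0.23 log2 units (limma adjusted p = 0.982). The response of Pgf was larger at 16 h by 0.59 ± 0.29 (limma adjusted p = 0.982), that of Adm by 0.43 ± 0.44 and that of Vegfa by 0.21 ± 0.44. The cultures of both times carry different numbers, so time and culture preparation cannot be told apart.

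Away from hypoxia, Vegfc was lower in tumours than in culture. It was at 7.06, 7.39 and 7.03 in normoxic regions of tumours 1, 2 and 3, against 8.20, 8.44 and 8.41 in normoxic cultures at 6 h and 8.22, 8.32 and 8.13 at 16 h. All tumour arrays lay below all culture arrays. Vegfc fell 2.18-fold in this comparison, by 1.13 ± 0.13 log2 units (SE, n = 3 regions and 6 cultures, limma adjusted p = 3.53e-06). The call held under every alternative, at -1.44 to -0.93. Called higher in normoxic tumour regions were Angpt2 by 0.46 ± 0.12 (limma adjusted p = 0.00387), Angptl4 by 0.41 ± 0.12 (limma adjusted p = 0.00797) and Edn1 by 0.37 ± 0.13 (limma adjusted p = 0.0205). These 3 calls, against 43.6% of all probe sets called higher, and the 1 call of Vegfc, against 20.7% called lower, were made in a contrast whose median over all probe sets was itself 0.245. That median was 0.0571 after quantile normalization and -0.0685 after centring each array on its median. After centring, Angpt2 was at 0.15, Angptl4 at 0.10 and Edn1 at 0.06, none called. After quantile normalization Angpt2 was at 0.36 and still called, with Angptl4 at 0.05 and Edn1 at 0.04 not called. Angptl4 at 0.33 and Edn1 at 0.26 also lost their calls without the normoxic region of tumour 1. Apln was at 0.36 ± 0.16 (limma adjusted p = 0.0597) and was called after quantile normalization, at 0.67 (limma adjusted p = 0.00690), without normoxic tumour region 3, at 0.48, and without normoxic culture 22, at 0.41. Vegfb was at 0.40 ± 0.19 (limma adjusted p = 0.0838) and was called after quantile normalization, at 0.94 (limma adjusted p = 0.00407). Pgf was at 0.39 ± 0.26, Angpt1 at 0.19 ± 0.11 (-0.13 after centring), Vegfa at 0.16 ± 0.28 and Adm at -0.08 ± 0.39. Calls over all probe sets split into 11938 higher and 5663 lower, into 6032 and 4457 after quantile normalization and into 4371 and 8487 after centring. Endothelial and macrophage markers were higher in the tumour regions too (9 of 9 and 11 of 12 called, with medians of 0.67 and 2.18), as were 8 of 8 adipocyte, 6 of 9 pericyte and 6 of 7 skeletal muscle markers, and their part in these differences was not tested.

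Normoxic cultures at 16 h against 6 h gave no call among the members, where 2.41% of all probe sets were called higher. Angpt2 came nearest. It was at 6.79, 6.78 and 6.74 in normoxic cultures at 16 h, against 6.37, 6.41 and 6.28 at 6 h, without overlap, a difference of 0.42 ± 0.12 (limma adjusted p = 0.0625). The other 9 members differed by -0.15 to 0.21. Calls over all probe sets split into 660 higher and 670 lower, and into 453 and 1253 after centring.

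Beyond the 10 factors, 5 lists of related genes were counted, in which 68 of 84 symbols had a probe set of their own. The symbols include older names of listed genes (Figf, Cyr61 and Ctgf for Vegfd, Ccn1 and Ccn2), so fewer genes than symbols were listed. No gene of the 11 measured receptors and co-receptors was called under hypoxia. Their median difference was -0.10 in the tumours, 0.01 at 6 h and -0.04 at 16 h. The smallest p-values belonged to Flt4, the Vegfc receptor, at 0.38 ± 0.22 in the tumours and 0.24 ± 0.14 at 16 h, and to the VEGF co-receptors Nrp1, at -0.30 ± 0.19 in the tumours, and Nrp2, at -0.14 ± 0.11 at 6 h and -0.46 ± 0.11 at 16 h (limma adjusted p = 0.107). Ramp3, a partner of the adrenomedullin receptor, was at 0.18 ± 0.12 at 6 h.

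Of 18 other angiogenic ligands, 9 lay above 0 in the tumours, 11 at 6 h and 8 at 16 h, and none was called in these comparisons. Cxcl12, a chemokine that draws vessel-forming and immune cells, was at 8.30, 8.89 and 8.20 in hypoxic regions of tumours 1, 2 and 3, against 9.90, 9.93 and 9.40 in normoxic regions. The groups did not overlap, and the difference was -1.28 ± 0.20 (limma adjusted p = 0.185). It was called with the spread of all 18 arrays (limma adjusted p = 0.00135). In culture Cxcl12 differed by 0.04 ± 0.13 at 6 h and -0.06 ± 0.13 at 16 h. Its tumour less culture response, with the error of all 18 arrays, was called at -1.27 ± 0.16 (limma adjusted p = 0.00999). In that contrast 1 of the 18 ligands was called lower, beside 0.987% of all probe sets. Ccn1, a matrix-associated protein that supports vessel growth, was at 1.64 ± 0.40 in the tumours (limma adjusted p = 0.328), and was called with the spread of all 18 arrays (limma adjusted p = 0.0177). Its culture differences were -0.13 ± 0.19 at 6 h and 0.21 ± 0.19 at 16 h. In culture the smallest p-values were those of Angpt4, another Tek ligand, at 0.27 ± 0.11 at 6 h and -0.20 ± 0.11 at 16 h, of Fgf2 at -0.33 ± 0.15 at 6 h and of Fgf1 at 0.35 ± 0.15 at 16 h, both endothelial mitogens. Of the 3 measured angiopoietin-like relatives of Angptl4, Angptl1 was at 0.76 ± 0.19 in the tumours (limma adjusted p = 0.341), 0.25 ± 0.15 at 6 h and -0.35 ± 0.15 at 16 h. Angptl6 was at -0.21 ± 0.19 in the tumours and 0.11 ± 0.12 at 6 h, and Angptl2 at -0.51 ± 0.26 at 16 h. None of the 3 was called.

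Among the 10 measured angiogenesis inhibitors, 2 were called lower in culture at 16 h, where 0.102% of all probe sets were called lower. None was called higher, and by difference 3 of the 10 lay above 0 and 7 below. Cxcl10, an interferon-induced chemokine that restrains endothelial growth, was at 8.21, 7.49 and 8.45 in hypoxic cultures 22, 28 and 29, against 9.37, 9.27 and 9.24 in the normoxic ones. The groups did not overlap, and Cxcl10 fell by 1.24 ± 0.22 log2 units (limma adjusted p = 0.0189). Sema3a, a guidance protein that competes with VEGF at Nrp1, was at 8.25, 8.05 and 8.04 in the same hypoxic cultures, against 8.97, 9.11 and 8.59 in the normoxic ones. It fell by 0.78 ± 0.16 (limma adjusted p = 0.0462), again without overlap. Both calls were lost with the spread of all 18 arrays (limma adjusted p = 0.309 and 0.269). That of Cxcl10 was also lost without either array of culture 22 or the normoxic array of culture 28 or 29 (differences of -1.32 to -1.20, limma adjusted p = 0.0507 to 0.104). That of Sema3a was also lost after quantile normalization and without either array of culture 22 or 28 or the hypoxic array of culture 29 (-0.85 to -0.67, limma adjusted p = 0.0991 to 0.201). At 6 h Cxcl10 was at -0.65 ± 0.22 and Sema3a at -0.33 ± 0.16, neither called. In the tumours Cxcl10 was at 8.34, 7.46 and 6.94 in hypoxic regions, against 9.01, 8.81 and 9.73 in normoxic regions. Sema3a was at 5.85, 6.17 and 5.33 in hypoxic regions, against 7.21, 7.17 and 7.09 in normoxic regions. Both were lower in every hypoxic region, by -1.60 ± 0.40 and -1.37 ± 0.22 (limma adjusted p = 0.333 and 0.185), and both were called with the spread of all 18 arrays (limma adjusted p = 0.0300 and 0.00230) and without tumour 1, at -2.07 and -1.38. Neither was called without tumour 2 or 3. The median of the inhibitors was 0.18 in the tumours, 0.04 at 6 h and -0.09 at 16 h.

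Of 26 other vasoactive genes measured, 1 was called higher at each culture time, beside 0.183% of all probe sets at 6 h and 0.603% at 16 h, and none lower. This was Hmox1, heme oxygenase 1, which releases the vasodilator carbon monoxide and is induced by many stresses besides hypoxia. It was at 10.36, 10.32 and 10.74 in hypoxic cultures 6, 13 and 26, against 9.33, 9.06 and 9.31 in the normoxic ones. At 16 h it was at 10.62, 10.43 and 11.06 in hypoxic cultures 22, 28 and 29, against 9.23, 9.50 and 9.81 in the normoxic ones. There was no overlap at either time, and Hmox1 rose by 1.24 ± 0.18 at 6 h (limma adjusted p = 0.00881) and by 1.19 ± 0.18 at 16 h (limma adjusted p = 0.00601). The 6 h call was lost without normoxic culture 13, at 1.16, and without hypoxic culture 26, at 1.11 (limma adjusted p = 0.0695 and 0.0699), and both calls were lost with the spread of all 18 arrays (limma adjusted p = 1 and 0.984). In the tumours Hmox1 was at 10.81, 10.05 and 9.58 in hypoxic regions, against 6.49, 8.93 and 7.30 in normoxic regions. The normoxic region of tumour 2 was again the highest normoxic one, and the difference of 2.58 ± 0.56 was not called (limma adjusted p = 0.281), but was called with the spread of all 18 arrays (limma adjusted p = 0.0101) and without tumour 1, at 1.71. Hmox1 was not called without tumour 2 or 3. Nos2, the inducible nitric oxide synthase, was at 0.86 ± 0.21 in the tumours (limma adjusted p = 0.316), called with the spread of all 18 arrays (limma adjusted p = 0.00860). The median of this list was 0.14 in the tumours, 0.13 at 6 h and -0.06 at 16 h.

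**Figure D4:**
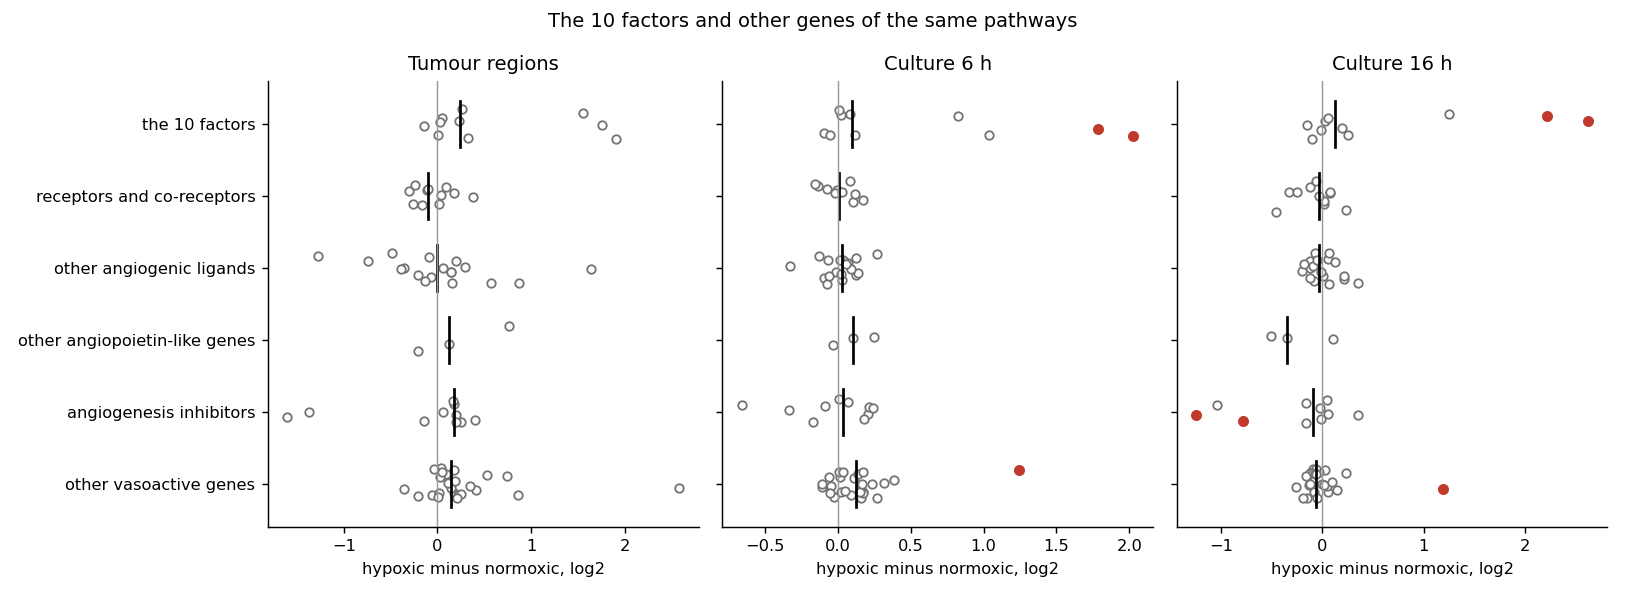
Hypoxic minus normoxic log2 difference of each measured gene (circles, red where called) of the 10 factors and of 5 lists of related genes, in tumour regions and in culture at 6 h and 16 h, with a black line at each list's median. The median farthest from 0, at -0.35, is that of the angiopoietin-like genes at 16 h, while Pgf, Adm and Hmox1 are the red points on the right and Cxcl10 and Sema3a those on the left at 16 h.

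The genes whose pattern over all 18 arrays was most like that of the called members were found by Pearson correlation, given as a description because the arrays share the hypoxic and normoxic groups. For Pgf they were Adm (r = 0.901), Car9 (0.887) and the stress gene Ndrg1 (0.88). For Adm they were the glycolytic enzymes Eno2 (0.912) and Gpi (0.908), followed by Pgf (0.901).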

How the data were processed

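RNA of 18 samples, 3 per group, was amplified and read on the Affymetrix Rat Gene 1.0 ST array, per the labels. The values used are the deposited ones, on a log2 scale. The submitters' processing notes name RMA and Partek 6.5b. The annotation, and whether tumour and culture arrays were normalized as 1 set, are not given in the sources used here, so tumour against culture levels rest on the deposited scale. Of 27363 probe sets, 15420 are in the platform annotation and 15097 carry 1 symbol. The probe set with the highest mean stood for a gene with several.

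Every probe set was tested with limma 3.58.1 in R 4.3.3 (lmFit, eBayes, two-sided, Benjamini-Hochberg over all probe sets, threshold 0.05). Tumour regions were compared in 6 arrays with tumour as a block, and cultures in 12 arrays without a block. The tumour less culture response used 18 arrays with 9 pairs as blocks, and normoxic tumours against cultures 18 arrays in 6 groups. The script was tested on simulated data.

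Every member was named. From each of 5 lists the called genes were named, or else the 2 with the smallest p, and for each called member the 3 most correlated genes. Members and lists were chosen with earlier results of these data known. Same-numbered cultures deviated together from their group means (correlations of 0.125, 0.193 and 0.192 at 6 h, 0.13, 0.188 and 0.307 at 16 h). Culture number was therefore taken as a pairing in an alternative fit, and the blocked value is given where it changes a call. The main fits of hypoxia against normoxia in culture, and the calls named from them, had no such block. Regions paired by tumour gave 0.128, 0.0357 and 0.273. The labels do not say that cultures were separate experiments, so p-values may measure technical spread. Promoters are RefSeq's (GRCr8), and protein sequences were not used here. Alternatives were quantile normalization, median centring, leaving out the dimmest 25% of probe sets, trended and robust variance, other blocks, the spread of all 18 arrays and leaving out replicates. The spread of all 18 arrays mixes the more variable tumours with the less variable cultures. It can therefore understate the error of tumour comparisons and overstate that of culture comparisons. The main contrasts of tumours with cultures were fitted on all 18 arrays and share this limit.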

Additional observations from a re-analysis of the deposited data

Results flagged for a closer look

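The response of Angpt2, the Tek ligand that loosens vessels, had opposite signs in the pairs of tumours and in those of culture at 6 h, though neither mean response passed the test. It was -0.31, -0.12 and -0.01 log2 units in tumours 1, 2 and 3, against 0.11, 0.08 and 0.17 in cultures 6, 13 and 26, a difference between the mean responses of -0.27. At 16 h the mean response was -0.15 ± 0.12, of the same sign as in the tumours. That sign rested on culture 28: the pairs were -0.03, -0.47 and 0.05 in cultures 22, 28 and 29. Without hypoxic culture 28 the mean response was 0.0047. The difference between tumours and culture at 6 h was not tested. The tested contrast with the mean of both culture times gave -0.13 ± 0.16 (limma adjusted p = 0.698). Angpt2 was picked among the 10 members by this pattern of signs, and how many of all probe sets show such a pattern was not counted.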

How the results depend on the processing

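Pgf in culture at both times and the lower Vegfc of normoxic tumours kept their calls under every alternative run. With 3 arrays per group, hypoxic minus normoxic differences of the size seen for Vegfb, Vegfc, Angpt1, Angpt2, Angptl4 and Edn1 could not be told from 0. The probe sets of Angpt1 and Edn1 were among the dimmest 25%. Every member has 1 probe set, so the alternative of using each probe set on its own gave nothing to compare. Where a cause is not named below it was not tested.

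Over all probe sets, the tumour comparison gave 1 call without the dimmest 25%, 22 with trended variance, 1408 with the spread of all 18 arrays and 0 to 563 with 1 tumour left out, 0 of them without tumour 2 or 3, against 0. Its members called were 3 with the spread of 18 arrays and 0 to 2 with 1 tumour left out. Without the tumour as a block it gave 0. The culture comparison at 6 h gave 6 calls with the spread of 18 arrays and 27 to 50 with 1 array left out, against 52. Its members called were 1 with trended variance, 4 with the culture number as a block, 1 with the spread of 18 arrays and 1 to 2 with 1 array left out. At 16 h the counts were 33 with the spread of 18 arrays, where 1 member was called, and 74 to 171 with 1 array left out, against 193. The replicate block changed no call of a member other than those of Vegfa at both times and Apln at 6 h. Normoxic cultures at 16 h against 6 h gave 823 after quantile normalization, 137 with the spread of 18 arrays and 363 to 907 with 1 array left out, against 1330. The tumour response less the culture response gave 638 after quantile normalization and 44 to 1365 with 1 pair left out, against 319, with 0 to 1 member called. Normoxic tumours against cultures gave 10489 after quantile normalization, against 17601. There 4 members were called, against 1 after median centring and 2 to 5 with 1 array left out, where the added call was that of Apln. After quantile normalization the count was also 4, with Apln and Vegfb in place of Angptl4 and Edn1.

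Signs turned as follows. In the tumours, Angptl4 was at -0.0273 after quantile normalization, -0.00077 after centring and -0.13 to 0.27 with 1 tumour left out. Vegfb was at -0.0187 after centring and -0.29 to 0.49, and Vegfc at -0.0426 and -0.10 to 0.0662. At 6 h, Angpt1 was at -0.0019 after quantile normalization, -0.0311 after centring and -0.0751 to 0.13 with 1 array left out, Vegfb at -0.0186 after centring and -0.11 to 0.10, and Vegfc at -0.16 to 0.0671. At 16 h, Angpt1 was at 0.0177 after centring and -0.0688 to 0.0222 with 1 array left out, Angptl4 at -0.03 to 0.14, Angpt2 at -0.24 to 0.0047 and Edn1 at -0.0639 to 0.19. In the 16 h less the 6 h response, with 1 array left out, Vegfa was at -0.11 to 0.62 and Vegfb at -0.21 to 0.0100, Angpt1 was at 0.0487 after centring and -0.15 to 0.0594, and Edn1 at 0.0255 after quantile normalization, 0.0404 after centring and -0.15 to 0.11. In normoxic cultures at 16 h against 6 h, Vegfa was at -0.20 to 0.45 and Pgf at -0.32 to 0.0379 with 1 array left out, Vegfc at 0.0086 and Edn1 at -0.0144 after quantile normalization, and Angpt1 at -0.0718 after it, -0.0874 after centring and -0.0824 to 0.12 with 1 array left out. In the tumour response less the culture response, Pgf was at 0.45 after quantile normalization and -0.78 to 0.0711 with 1 pair left out, Adm at 0.0794 and -0.90 to 0.18, and Apln at 0.0220 and -0.35 to 0.0612. With 1 pair left out, Angptl4 was at -0.10 to 0.30 and Vegfb at -0.25 to 0.53. In normoxic tumours against cultures, Angpt1 was at -0.13 and Vegfa at -0.15 after centring, Vegfa at -0.0862 to 0.37 with 1 array left out, Pgf at -0.0344 to 0.61, and Adm at 0.17 after quantile normalization and -0.59 to 0.38.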
